A study of Homo sapiens with 6 samples.

Results

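The matrix metalloproteinases (MMPs), the ADAM and ADAMTS proteases, the ADAMTS-like proteins (ADAMTSLs) and the tissue inhibitors of metalloproteinases (TIMPs) were examined by RNA-seq of the ovarian cancer line HEY upon knockdown of PQBP1. PQBP1, polyglutamine binding protein 1, is a nuclear protein that works in pre-mRNA splicing. Members were taken from the gene table by name: every gene named MMP, ADAM, ADAMTS, ADAMTSL or TIMP followed by digits, without names that mark antisense genes or numbered pseudogenes. The rule used no measured value and gave 68 of 32679 genes, namely 21 MMPs, 20 ADAMs, 18 ADAMTSs, 5 ADAMTSLs and 4 TIMPs. The 3 control samples carried a non-targeting hairpin (shNC, genotype NC) and were left untreated, and the 3 knockdown samples carried a hairpin against PQBP1 (shPQBP1) and received doxycycline at 1 µg per ml. All 6 samples were labelled day 3. The hairpins were delivered by lentivirus into cells selected with puromycin, and because doxycycline was given only with the PQBP1 hairpin, hairpin and drug cannot be told apart.

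Metalloproteinases of these families hold a zinc ion in the active site and cut proteins outside or at the surface of the cell. MMPs cleave collagens, fibronectin, laminins and other matrix proteins, and the membrane-anchored MMPs also activate other MMPs. ADAMs are membrane proteins that release growth factors, cytokines and adhesion molecules from the cell surface, a step called shedding. ADAMTSs are secreted and bind the matrix, where several of them cut proteoglycans such as versican, while ADAMTSL proteins resemble their matrix-binding part and lack the protease domain. TIMPs block MMPs and, to differing degrees, ADAMs and ADAMTSs, and in ovarian tumours these enzymes have been studied for their part in peritoneal spread.

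The active site is what unites the proteases and sets the ADAMTSLs, the TIMPs and part of the ADAMs apart, so the coding stretch for it is shown for 8 members that were expressed in HEY cells. A script searched the coding sequence of the main GENCODE transcript of each gene for codons reading histidine, glutamate, any 2 residues, histidine, any 5 residues, histidine. It was found in 50 of the 65 protein-coding members: in 21 of 21 MMPs, 18 of 18 ADAMTSs and 11 of 17 protein-coding ADAMs, and in 0 of 5 ADAMTSLs and 0 of 4 TIMPs. Of the 50, 46 also had the glycine codon between the second and the last histidine, and the 4 without it were ADAMTS1, ADAMTS4, ADAMTS9 and ADAMTS15. Each stretch has 33 bases and runs 5′ to 3′ on the coding strand of hg38, and capitals mark the codons of the 3 histidines and of the glutamate. For MMP14 it lies in exon 5 at chr14:22843283-22843315 (plus strand), and for ADAM8 in exon 11 at chr10:133271880-133271912 (minus strand). In ADAM12, ADAM17 and ADAM19 it also lies in exon 11 on the minus strand, at chr10:126094059-126094091, chr2:9510078-9510110 and chr5:157505734-157505766. In ADAM10 and ADAMTS6 it is joined from exons 9 and 10, and in ADAMTS12 from exons 7 and 8, all on the minus strand of chromosomes 15, 5 and 5.
MMP14: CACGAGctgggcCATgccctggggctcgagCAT
ADAM8: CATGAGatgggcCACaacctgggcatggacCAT
ADAM10: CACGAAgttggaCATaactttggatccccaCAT
ADAM12: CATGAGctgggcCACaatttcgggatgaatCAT
ADAM17: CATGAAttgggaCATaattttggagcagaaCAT
ADAM19: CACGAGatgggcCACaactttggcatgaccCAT
ADAMTS6: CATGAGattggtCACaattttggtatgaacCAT
ADAMTS12: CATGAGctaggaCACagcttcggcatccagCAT

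Between these 8 stretches, 18 to 28 of the 33 bases were identical in a pair, the most between ADAM8 and ADAM19 and 18 in 3 pairs, MMP14 with ADAMTS6, ADAM8 with ADAM10 and ADAM10 with ADAM12. Of the 21 members that were expressed highly enough to be tested, 15 encode the stretch, and the other 6 are the 4 TIMPs, ADAMTSL1 and ADAM23.

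Levels are given as FPKM, the fragments of a gene divided by its length in kilobases and by the depth of the library, which allows levels of different genes to be set side by side. Differences are log2 fold changes of FPKM + 0.1, shPQBP1 over shNC, with the standard error (SE) of limma, a linear model fitted across all genes. The added 0.1 understates the difference of low genes. Genes with a mean of at least 1 FPKM over the 6 samples were tested, 11413 in all, and a gene was called at a Benjamini-Hochberg adjusted p under 0.05. The summed FPKM of a sample ran from 278285.8 to 318484.3, and 26.5% to 29.8% of the genes in the table were at 0. Within the groups, the deviations of single samples followed the GC content of the transcripts, with a Spearman rho of 0.613 in shNC replicate 1, which stood furthest apart, 0.403 in shPQBP1 replicate 2 and -0.518 to -0.113 in the other 4 samples. The log2 fold change itself followed GC content, at a rho of -0.459. These are correlations across 11385 genes, which share the library and are not replicates. Differences of single members that moved by over 1.5 times without shNC replicate 1, or with a correction of each sample for GC content and transcript length, are given in both forms. The samples are bulk RNA, so that fewer cells of a kind and less RNA per cell cannot be told apart.

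PQBP1 itself was at 7.18, 6.67 and 6.93 FPKM in shNC and at 1.68, 1.72 and 1.44 FPKM in shPQBP1. The means were 6.93 ± 0.255 and 1.61 ± 0.151 FPKM (SD, n = 3 each), and the log2 fold change was -2.04 (SE 0.10, limma adjusted p = 0.00154). The targeted gene was thus lower in every knockdown sample than in every control sample, as labelled. Of the epithelial markers listed for the cell line, KRT8 and KRT18 lay between 52.76 and 94.56 FPKM, KRT19 and EPCAM between 0.79 and 2.10 FPKM, and the epithelial cadherin CDH1 at or below 0.06 FPKM. The mesenchymal markers VIM, CDH2 and ZEB1 lay between 2.94 and 1342.76 FPKM. Of the Müllerian and ovarian markers, PAX8 lay between 12.33 and 24.08 FPKM, WT1 at 0.63 to 0.71 FPKM in shNC and 0.31 to 0.45 FPKM in shPQBP1, and MUC16 at or below 0.01 FPKM. None of the 9 tested markers was called from the deposited FPKM. After the GC and length correction 5 were called and higher (KRT8, KRT18, KRT19, VIM and PAX8), beside 8.24% of all genes called. From the deposited FPKM, PAX8 (log2 fold change 0.53, limma adjusted p = 0.102), ZEB1 (0.84, limma adjusted p = 0.157) and the endothelial cadherin CDH5 (0.44, limma adjusted p = 0.151) were at an unadjusted p under 0.05, and their part in the results was not tested. Of markers of other cells, the 3 endothelial genes summed to 2.39 to 3.20 FPKM in shNC and 3.13 to 3.73 FPKM in shPQBP1, nearly all of it CDH5, with VWF at or below 0.04 FPKM and PECAM1 going the other way, at 0.23 to 0.25 FPKM in shNC and 0.02 to 0.06 FPKM in shPQBP1. The 4 leukocyte genes summed to 9.12 to 15.8 and 12.3 to 21.3 FPKM, nearly all of it the lysosomal protein CD68, with PTPRC listed at 0 throughout, and the 5 fibroblast genes to 0.35 to 0.93 and 0.25 to 0.85 FPKM.

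Expression of the families was carried by few genes. Of the 68 members, 21 reached a mean of 1 FPKM, 19 lay from 0.1 to under 1 FPKM, 24 lay above 0 and under 0.1 FPKM, and 4 (ADAM29, ADAM5, MMP23B and MMP28) were listed at 0 in every sample. Tested were 3 of the 21 MMPs, 8 of the 20 ADAMs, 5 of the 18 ADAMTSs, 1 of the 5 ADAMTSLs and all 4 TIMPs. ADAM8 and ADAMTS9 had a mean under 1 FPKM in shNC and passed the limit only through their level in shPQBP1. By mean level the order began with MMP14 at 119 FPKM, followed by TIMP2 at 46.4, TIMP1 and ADAMTS1 with overlapping values, and ADAM9 at 23.8 FPKM. The plot of FPKM by sample shows how far apart these levels were.

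**Figure D1:**
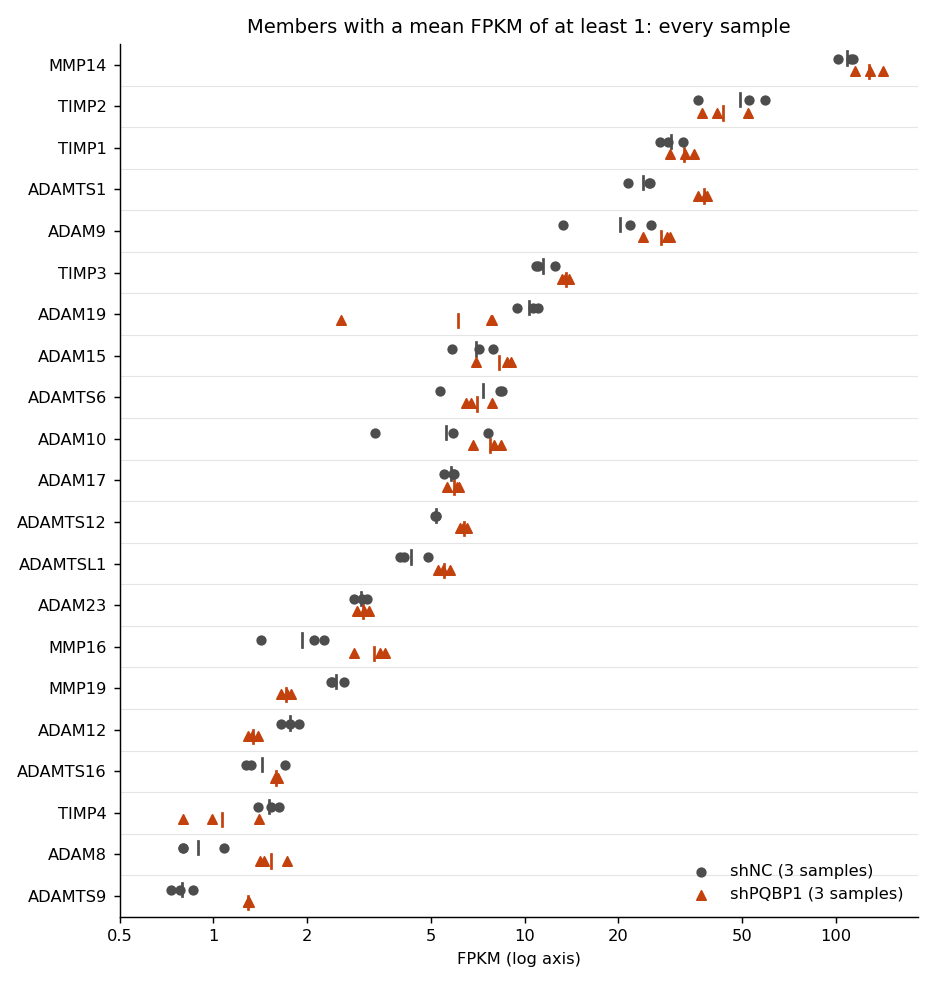
FPKM (log axis) of the 21 members with a mean of at least 1 FPKM, ordered by mean, with a circle for each shNC sample, a triangle for each shPQBP1 sample and a short line at each group mean. The groups lie apart in 11 members, among them ADAMTS1 (21.57 to 25.26 against 36.18 to 38.64 FPKM), and ADAM19 has a single low shPQBP1 sample at 2.57 FPKM.

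Of the 21 members tested, 1 was called upon PQBP1 knockdown, ADAMTS1, which rose. Over all genes tested, 2.91% were called (332 of 11413). At an unadjusted p under 0.05, 7 members were higher and 2 lower in shPQBP1, beside 11.9% of all genes tested that were higher and 11.7% that were lower. By the threshold of the study's methods, more than 2-fold at p under 0.05 without adjustment, 0 members were called by limma, beside 1.52% of all genes. The 3 samples of each group did not overlap in 8 members that were higher and 3 that were lower, beside 17.3% and 17.1% of all genes tested. The log2 fold change was positive in 15 of the 21 (71.4%, beside 52.8% of all genes), and its median was 0.23 for the members and 0.02 for all genes. These counts describe the members that passed the limit on FPKM and carry no test of their own. ADAM8 and ADAMTS9, which passed it only through the group where they were high, are counted among the higher ones, and without them 5 of 19 were higher at an unadjusted p under 0.05, 6 lay apart and higher, 13 had a positive log2 fold change, and the median was 0.16. With GC content and length corrected for, 7 members were called (beside 8.24% of all genes), namely ADAMTS1, ADAMTS9, ADAMTS12, ADAM8 and MMP16, which were higher, and ADAM12 and MMP19, which were lower. Without ADAM8 and ADAMTS9 these were 5.

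**Figure D2:**
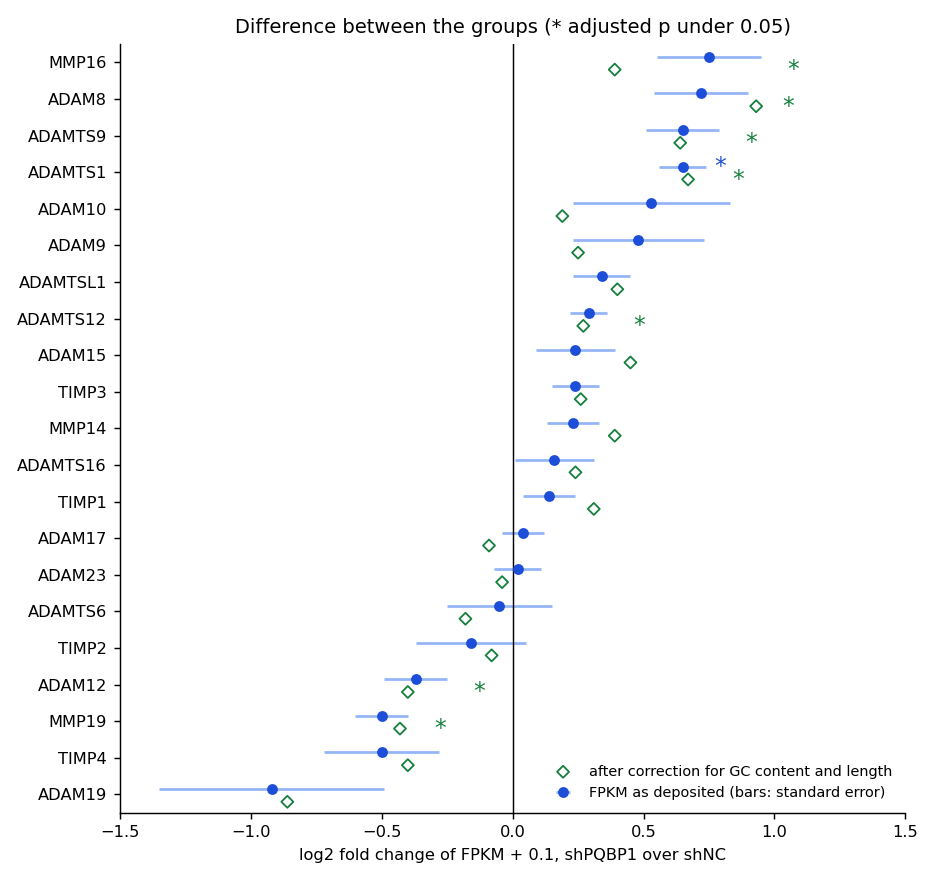
Log2 fold change of FPKM + 0.1, shPQBP1 over shNC, for the 21 members tested, with circles and bars for the value and its SE from the deposited FPKM and diamonds for the value after correction for GC content and length. A star marks an adjusted p under 0.05, reached by ADAMTS1 without the correction and by 7 members with it.

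Among the membrane-anchored MMPs, MMP14 and MMP16 were expressed. MMP14, a collagenase of the cell surface that also activates the gelatinase MMP2, was at 113.48, 111.81 and 101.40 FPKM in shNC and at 114.90, 128.38 and 141.65 FPKM in shPQBP1. The lowest knockdown sample lay only slightly above the highest control, and the difference of 0.23 on the log2 scale (SE 0.10) was not called (limma adjusted p = 0.216), nor was the value of 0.39 (limma adjusted p = 0.0544) after the GC and length correction. MMP16, a related membrane MMP, was at 1.42, 2.27 and 2.10 FPKM in shNC and at 3.42, 2.84 and 3.55 FPKM in shPQBP1. Its groups did not overlap, and in the main fit it had the highest log2 fold change of the tested members, 0.75 (SE 0.20, limma adjusted p = 0.0996). This rank was lost to ADAM8 without shNC replicate 1 (0.85) and after the GC and length correction (0.93). It was also lost to ADAM8 without shPQBP1 replicate 1 (0.75 against 0.72 for MMP16). Both genes were at 0.78 with 0.01 added in place of 0.1. With 1 added in place of 0.1, ADAMTS1 (0.63) stood above MMP16 (0.55). The low value of shNC replicate 1 bore on the difference of MMP16, which was 0.56 (limma adjusted p = 0.083) without that sample and 0.39 (limma adjusted p = 0.0375) after the GC and length correction. An exon of MMP16 overlaps that of an unnamed gene on the other strand, so part of its reads cannot be told apart. The other 5 membrane MMPs were under 1 FPKM, MMP15 and MMP24 at means of 0.567 and 0.16 FPKM.

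MMP19, a secreted MMP that cuts basement membrane proteins, was the single secreted MMP above the limit and was lower upon knockdown. It was at 2.62, 2.41 and 2.39 FPKM in shNC and at 1.72, 1.65 and 1.77 FPKM in shPQBP1, with means of 2.47 ± 0.127 and 1.71 ± 0.0603 FPKM (SD, n = 3 each). The groups did not overlap. The log2 fold change was -0.50 (SE 0.10), with a limma adjusted p of 0.0568 that missed the threshold, and -0.43 (limma adjusted p = 0.0464) after the GC and length correction. MMP19 lies on the minus strand at chr12:55835433-55842966 (hg38), and its exons overlap those of TMEM198B on the other strand. Since the use of strand in counting was not stated, part of the reads of these genes cannot be told apart.

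All 4 TIMPs were expressed, and none was called by limma, with TIMP3 at an unadjusted p under 0.05. TIMP2, which binds MMP14 at the membrane in the activation of MMP2, was at 59.06, 52.56 and 36.09 FPKM in shNC and at 41.40, 37.13 and 52.07 FPKM in shPQBP1. Its groups overlapped widely, with a log2 fold change of -0.16 (SE 0.21, limma adjusted p = 0.653) that was -0.02 (limma adjusted p = 0.975) without shNC replicate 1, -0.37 (limma adjusted p = 0.284) without shNC replicate 3 and -0.08 after the GC and length correction. TIMP1, a broad inhibitor of secreted MMPs, was at 32.28, 28.90 and 27.26 FPKM in shNC and at 29.35, 32.79 and 35.08 FPKM in shPQBP1, which also overlapped (log2 fold change 0.14, SE 0.10, limma adjusted p = 0.432, and 0.31, limma adjusted p = 0.0875, after the GC and length correction). Without shNC replicate 3 or shPQBP1 replicate 3 the value of TIMP1 was 0.08. TIMP3, which is held in the matrix and also blocks ADAM17 and several ADAMTSs, was at 12.54, 11.03 and 10.91 FPKM in shNC and at 13.15, 13.53 and 13.93 FPKM in shPQBP1. Each knockdown sample exceeded each control, by a small margin, and the log2 fold change of 0.24 (SE 0.09) had an unadjusted p of 0.0312 and a limma adjusted p of 0.171. TIMP4 ranged from 1.39 to 1.62 FPKM in shNC and from 0.80 to 1.40 FPKM in shPQBP1, with a log2 fold change of -0.50 (SE 0.22, limma adjusted p = 0.223) that was -0.33 (limma adjusted p = 0.462) without shPQBP1 replicate 1. The exons of TIMP2 overlap those of CEP295NL on the same strand and the exons of TIMP4 those of SYN2, so part of their reads cannot be told apart.

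The level of MMP14 was also set against those of TIMP2 and TIMP1 in each sample, the latter an inhibitor that acts poorly on MMP14. MMP14 over TIMP2 was 1.92, 2.13 and 2.81 in shNC and 2.78, 3.46 and 2.72 in shPQBP1, so that the groups overlapped. MMP14 over TIMP1 was 3.52, 3.87 and 3.72 in shNC and 3.91, 3.92 and 4.04 in shPQBP1, a narrow gap between the groups.

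Protease inhibitors other than TIMPs were read from a list of 9 genes, of which 4 were tested and 2 called, both higher, beside 2.91% of all genes tested. After the GC and length correction 3 were called, all higher, beside 8.24% of all genes. The call gained was that of CST3 (log2 fold change 0.39, limma adjusted p = 0.0144), which was at 0.17 (limma adjusted p = 0.464) from the deposited FPKM. TFPI2, a Kunitz-type inhibitor that acts on plasmin and has been described to block MMPs, was at 12.90, 11.51 and 10.90 FPKM in shNC and at 30.53, 28.24 and 26.40 FPKM in shPQBP1. It rose by 1.26 on the log2 scale (SE 0.10, limma adjusted p = 0.00479), a larger difference than that of any tested member. SPOCK1, a matrix proteoglycan of the testican family, was at 1.69, 1.9 and 1.88 FPKM in shNC and at 3.46, 3.49 and 3.22 FPKM in shPQBP1 (log2 fold change 0.86, SE 0.10, limma adjusted p = 0.0174). Neither gene showed an overlap of the groups. The call of TFPI2 held with each sample left out in turn (limma adjusted p from 0.00731 to 0.0385), whereas that of SPOCK1 held in 1 of these 6 fits, the one without shNC replicate 1 (limma adjusted p from 0.0186 to 0.0887).

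Of the 20 ADAMs, 11 encode the active site, and 7 of these were tested with ADAM23, which lacks it. ADAM9, a broadly expressed sheddase, was the most abundant, at 13.25, 25.52 and 21.78 FPKM in shNC and at 29.39, 24.04 and 28.58 FPKM in shPQBP1. ADAM10, the main sheddase of Notch receptors and cadherins, was at 3.31, 7.62 and 5.88 FPKM in shNC and at 8.39, 6.81 and 7.98 FPKM in shPQBP1. In both genes the groups overlapped, and the lowest value was that of shNC replicate 1. The log2 fold change of ADAM9 was 0.48 (SE 0.25, limma adjusted p = 0.28) with that sample and 0.21 (SE 0.12, limma adjusted p = 0.349) without it. For ADAM10 it was 0.53 (SE 0.30, limma adjusted p = 0.311) with it and 0.20 (SE 0.15, limma adjusted p = 0.458) without it. Both transcripts have a low GC content, 38.7% and 37.5%, beside a median of 47.5% over the genes tested, and after the GC and length correction the values were 0.25 and 0.19, again not called. Exons of ADAM9, ADAM15 and ADAM17 overlap those of TM2D2, DCST1 and IAH1, those of ADAM10 overlap an unnamed gene, and part of their reads cannot be told apart.

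ADAM17, which sheds TNF and ligands of the EGF receptor, was the steadiest of the sheddases. It was at 5.89, 5.52 and 5.93 FPKM in shNC and at 6.15, 6.05 and 5.62 FPKM in shPQBP1, overlapping groups with a log2 fold change of 0.04 (SE 0.08, limma adjusted p = 0.785) that turned to -0.01 with quantile normalization and to -0.09 with the GC and length correction. ADAM15, an ADAM with an integrin-binding disintegrin domain, ranged from 5.86 to 7.94 FPKM in shNC and was at 6.99, 9.02 and 8.76 FPKM in shPQBP1 (log2 fold change 0.24, SE 0.15, limma adjusted p = 0.36, and 0.45, limma adjusted p = 0.0683, after the GC and length correction). Without shNC replicate 3 the value of ADAM15 was 0.12 (limma adjusted p = 0.627). ADAM23, a member without the catalytic site that binds integrins in neural cells, ranged from 2.84 to 3.16 FPKM over the 6 samples, with a log2 fold change of 0.02 (SE 0.09, limma adjusted p = 0.895) that was -0.03 with quantile normalization and -0.04 with the GC and length correction.

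ADAM8, a sheddase best known from leukocytes and also found in tumours, was higher in shPQBP1, at 1.45, 1.41 and 1.73 FPKM against 1.08, 0.80 and 0.80 FPKM in shNC. All knockdown samples lay above all controls. The means were 0.893 ± 0.162 and 1.53 ± 0.174 FPKM (SD, n = 3 each), and the log2 fold change was 0.72 (SE 0.18, limma adjusted p = 0.0877). The GC and length correction gave 0.93 (limma adjusted p = 0.0132) for this transcript, whose GC content of 64.0% was the highest of the tested members. Since ADAM8 entered the test only through the group where it was high, these p-values lend no support, and with no limit on FPKM the limma adjusted p was 0.169. Of the leukocyte markers besides CD68, PTPRC was listed at 0 and LYZ and CD14 stayed at or below 0.15 FPKM.

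In ADAM12 and ADAM19 the shPQBP1 samples lay below the shNC samples, and neither was called. ADAM12, an ADAM of muscle, placenta and tumours that cleaves insulin-like growth factor binding proteins, was at 1.65, 1.88 and 1.76 FPKM in shNC and at 1.29, 1.33 and 1.39 FPKM in shPQBP1. Its groups did not overlap, and the log2 fold change was -0.37 (SE 0.12, limma adjusted p = 0.137), or -0.40 (limma adjusted p = 0.0462) after the GC and length correction. ADAM19, which sheds neuregulins, was at 11.02, 9.42 and 10.64 FPKM in shNC and at 2.57, 7.82 and 7.88 FPKM in shPQBP1. All knockdown samples lay below all controls, but shPQBP1 replicate 1 lay far below the other two. The log2 fold change was -0.92 (SE 0.43, limma adjusted p = 0.249) with this sample and -0.39 (SE 0.11, limma adjusted p = 0.221) without it. The exons of ADAM19 overlap those of CYFIP2 on the other strand, so part of the reads of the 2 genes cannot be told apart.

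ADAMs depend on other proteins to mature and to reach their substrates: proprotein convertases such as furin remove the prodomain, iRhoms carry ADAM17, and tetraspanins of the TspanC8 group carry ADAM10. Of a list of 17 such activators and carriers, which also holds the plasminogen activators, 13 were tested and 2 were called, both lower (beside 2.91% of all genes tested), while at an unadjusted p under 0.05 there were 2 higher and 6 lower (beside 11.9% and 11.7% of all genes). FURIN was at 9.34 to 10.32 FPKM in shNC and at 6.07, 7.36 and 6.31 FPKM in shPQBP1, and fell by 0.58 on the log2 scale (SE 0.10, limma adjusted p = 0.041). TSPAN15, a TspanC8 tetraspanin that directs ADAM10 to N-cadherin, was at 2.89, 2.81 and 2.75 FPKM in shNC and at 1.86, 1.83 and 1.86 FPKM in shPQBP1 (log2 fold change -0.58, SE 0.09, limma adjusted p = 0.0325). Both pairs of groups lay apart. With each sample left out in turn, FURIN was called in 0 of 6 fits (limma adjusted p from 0.0592 to 0.167), and TSPAN15 in 1 of 6, the fit without shNC replicate 1 (limma adjusted p from 0.0414 to 0.146). The call of TSPAN15 was also lost with the GC and length correction (log2 fold change -0.40, limma adjusted p = 0.0724). Both calls were lost with no limit on FPKM (limma adjusted p = 0.0777 for FURIN and 0.0705 for TSPAN15). After the GC and length correction FURIN was called lower, and PLAU, the urokinase plasminogen activator, and TSPAN5 were called higher (log2 fold change 0.34 and 0.28, limma adjusted p = 0.0232 and 0.0414), beside 8.24% of all genes called. The median log2 fold change of the 13 was -0.38, beside 0.02 for all genes tested.

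Membrane proteins known to be shed by ADAMs were read from a list of 27 genes, of which 16 were tested and 2 called, both higher, beside 2.91% of all genes tested. L1CAM, a neural adhesion molecule found in ovarian carcinomas, was at 1.68, 1.54 and 1.9 FPKM in shNC and at 5.22, 6.29 and 5.76 FPKM in shPQBP1. It rose by 1.70 on the log2 scale (SE 0.12, limma adjusted p = 0.00473), and the call held with each sample left out in turn. TGFA, an EGF receptor ligand released by ADAM17, was at 6.57, 5.41 and 6.04 FPKM in shNC and at 9.38, 10.71 and 10.58 FPKM in shPQBP1 (log2 fold change 0.76, SE 0.11, limma adjusted p = 0.0241), with a call in 1 of the 6 fits that left out a sample, the one without shNC replicate 1 (limma adjusted p from 0.0217 to 0.12). At an unadjusted p under 0.05 there were 5 higher and 2 lower genes in this list (beside 11.9% and 11.7% of all genes), and the median log2 fold change was 0.07. After the GC and length correction 3 genes of the list were called, all higher (beside 8.24% of all genes), namely L1CAM, TGFA and SDC4. The log2 fold change of SDC4 was 0.34 (limma adjusted p = 0.147) from the deposited FPKM and 0.40 (limma adjusted p = 0.0219) after the correction. RNA levels give no measure of shedding itself.

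ADAMTS1, a secreted protease that cuts versican and aggrecan, was the single member called from the deposited FPKM. It was at 21.57, 25.26 and 25.11 FPKM in shNC and at 38.12, 38.64 and 36.18 FPKM in shPQBP1, with means of 24.0 ± 2.09 and 37.6 ± 1.3 FPKM (SD, n = 3 each). The lowest knockdown sample exceeded the highest control by more than the range of either group. ADAMTS1 rose by 0.65 on the log2 scale (SE 0.09, 1.57-fold, limma adjusted p = 0.0234). A two-sided exact permutation test of the 6 samples gave p = 0.1, the smallest that 3 against 3 samples allow. Among the 6 fits that left out a sample, the log2 fold change was 0.58 to 0.69 and the gene was called in 1, without shNC replicate 1 (limma adjusted p = 0.016). It was not called without shNC replicate 2 or 3 (limma adjusted p = 0.0639 and 0.0828) or without shPQBP1 replicate 1, 2 or 3 (limma adjusted p = 0.109, 0.102 and 0.108). After the GC and length correction the value was 0.67 (limma adjusted p = 0.0131). The gene lies on the minus strand at chr21:26835755-26845409 (hg38), within a stretch of 131 kb that it shares with ADAMTS5, and none of its exons overlaps an exon of another annotated gene. ADAMTS5, the other proteoglycan-cleaving enzyme of this pair, was at 0.06 to 0.20 FPKM with overlapping groups.

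ADAMTS9 and ADAMTS12 were also higher in every knockdown sample than in every control, without being called. ADAMTS9, which like ADAMTS1 cuts versican, was at 0.73, 0.78 and 0.86 FPKM in shNC and at 1.29, 1.3 and 1.29 FPKM in shPQBP1. Its log2 fold change of 0.65 (SE 0.14, limma adjusted p = 0.0694) matched that of ADAMTS1 in size, at a far lower level. The match depended on the added constant, and with 1 added in place of 0.1 ADAMTS9 was at 0.36 and ADAMTS1 at 0.63. The exons of ADAMTS9 overlap those of the antisense gene ADAMTS9-AS1, so part of the reads of the 2 cannot be told apart. ADAMTS12, one of the pair of enzymes that cut cartilage oligomeric matrix protein, was at 5.19, 5.21 and 5.14 FPKM in shNC and at 6.35, 6.20 and 6.55 FPKM in shPQBP1. The spread of its samples was small, and the log2 fold change was 0.29 (SE 0.07, limma adjusted p = 0.0918). After the GC and length correction ADAMTS12 was called at 0.27 (limma adjusted p = 0.0446). ADAMTS9 was then at 0.64 (limma adjusted p = 0.0243), but it entered the test only through the group where it was high, and with no limit on FPKM its limma adjusted p was 0.132. ADAMTS6, which acts on fibrillin microfibrils, was at 5.36, 8.31 and 8.46 FPKM in shNC and at 7.84, 6.46 and 6.72 FPKM in shPQBP1, overlapping groups whose log2 fold change of -0.05 (SE 0.20, limma adjusted p = 0.892) became -0.26 (SE 0.10, limma adjusted p = 0.202) without shNC replicate 1 and -0.18 (limma adjusted p = 0.371) after the GC and length correction. ADAMTS16 ranged from 1.27 to 1.70 FPKM in shNC and from 1.58 to 1.61 FPKM in shPQBP1 (log2 fold change 0.16, SE 0.15, limma adjusted p = 0.525, 0.08 without shNC replicate 1 and 0.28 without shNC replicate 3).

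ADAMTSL1, also called punctin, was the single ADAMTSL above the limit. It was at 4.09, 3.99 and 4.90 FPKM in shNC and at 5.48, 5.28 and 5.74 FPKM in shPQBP1, groups that lay apart with a log2 fold change of 0.34 (SE 0.11, unadjusted p = 0.0169, limma adjusted p = 0.133). ADAMTSL3, ADAMTSL4 and ADAMTSL5 lay at means of 0.358 to 0.632 FPKM with overlapping groups, and ADAMTSL2 was above 0 in a single sample, at 0.01 FPKM.

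Matrix proteins cut by MMPs and ADAMTSs were read from a list of 18 genes, of which 9 were tested. FN1, fibronectin, was at 42.51, 44.57 and 43.08 FPKM in shNC and at 127.42, 154.68 and 149.54 FPKM in shPQBP1, and rose by 1.72 on the log2 scale (SE 0.09, limma adjusted p = 0.00176). It is a substrate of MMP14, its groups lay far apart, and it was called with each sample left out in turn. From the deposited FPKM 2 of the 9 were called, both higher, beside 2.91% of all genes tested. At an unadjusted p under 0.05 there were 4 higher and 2 lower of the 9 (beside 11.9% and 11.7% of all genes), with a median log2 fold change of -0.05. After the GC and length correction 2 were called higher and 2 lower, beside 8.24% of all genes. The lower ones were COL5A1 (log2 fold change -0.55, limma adjusted p = 0.0215) and COL4A2 (-0.28, limma adjusted p = 0.0236). Of the lower genes, COL5A1 passed the limit on FPKM only through shNC, the group where it was high. Versican (VCAN), the substrate of ADAMTS1 and ADAMTS9, was below the limit for a test, at 0.59 to 0.70 FPKM in shNC and 0.82 to 1.47 FPKM in shPQBP1, and aggrecan (ACAN) was listed at 0.

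Summed over all members of a family, FPKM in shPQBP1 over shNC was 1.37 for the ADAMTSs, 1.21 for the ADAMTSLs, 1.17 for the MMPs, 1.12 for the ADAMs and 0.987 for the TIMPs. The ADAMTS sum was 36.36, 43.35 and 43.82 FPKM in shNC and 57.79, 56.66 and 54.64 FPKM in shPQBP1, without overlap, and ADAMTS1 made up 63.2% of it. The MMP sum was 116 ± 6.33 FPKM in shNC and 136 ± 13.4 FPKM in shPQBP1 (SD, n = 3 each), 93.9% of it MMP14. The groups also lay apart in the MMP sum, at 108.9 to 120.3 against 123.4 to 150.1 FPKM. So did those of the ADAMTSL sum, at 5.43 to 6.54 against 7.01 to 7.24 FPKM. The TIMP sum was 91.7 ± 14.9 and 90.5 ± 10.3 FPKM, a ratio whose direction turned with single samples, to 1.07 without shNC replicate 1, 1.02 without shPQBP1 replicate 1 or 2, and 0.909 without shNC replicate 3, and the ADAM sum 55.7 ± 6.53 and 62.2 ± 3.30 FPKM, with ADAM9 at 40.3% of the ADAM sum and a ratio of 1.05 without shNC replicate 1. The MMP, ADAMTS and ADAMTSL sums were thus carried mainly by a single gene each, ADAMTSL1 holding 75.7% of the last. The sums were not tested, since a sum over chosen members carries no test here.

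**Figure D3:**
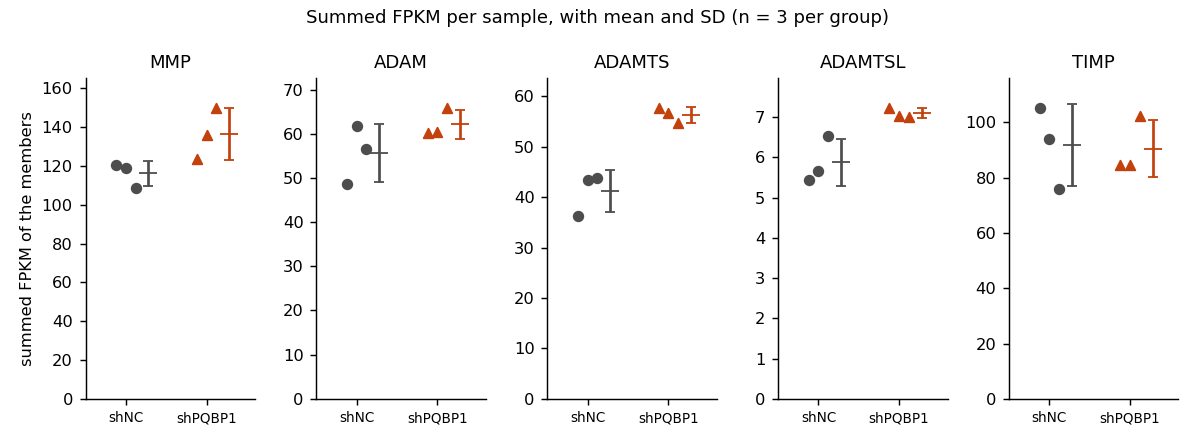
Summed FPKM of all members of each family in every sample, with circles for shNC, triangles for shPQBP1 and a bar for mean and SD (n = 3 per group), on axes that start at 0. The ADAMTS samples lie apart (36.36 to 43.82 against 54.64 to 57.79 FPKM). The MMP and ADAMTSL samples also lie apart, while the ADAM and TIMP samples overlap.

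The classical secreted MMPs were at low levels in HEY cells. MMP7, MMP8, MMP10, MMP1, MMP3, MMP12 and MMP13 lie within 435 kb at chr11:102520508-102955732 (hg38), and none of these 7 reached a mean of 1 FPKM. MMP1, an interstitial collagenase, was at 0.68, 0.43 and 0.45 FPKM in shNC and at 1.08, 1.04 and 1.05 FPKM in shPQBP1. MMP10, stromelysin 2, went the other way, at 0.17, 0.25 and 0.38 FPKM in shNC and at 0.06, 0.16 and 0.06 FPKM in shPQBP1. The groups lay apart in both genes, though values this low rest on few fragments and their depth is unknown. In a fit of the 30717 genes above 0 in any sample, the log2 fold change of MMP1 was 0.92 (limma adjusted p = 0.144) and that of MMP10 was -0.92 (limma adjusted p = 0.302), so neither was called. The size of these differences followed the added constant, with 0.44 for MMP1 and -0.21 for MMP10 at a pseudocount of 1 and 1.04 and -1.48 at 0.01. The exons of MMP1 overlap those of the pseudogene WTAPP1, so part of the reads of the 2 cannot be told apart. MMP3 overlapped between the groups, at 0.28 to 0.52 and 0.11 to 0.52 FPKM, and MMP7, MMP8, MMP12 and MMP13 were at or below 0.07 FPKM.

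Of the 19 members from 0.1 to under 1 FPKM, 5 had groups that did not overlap, 2 higher and 3 lower, beside 20.2% of the 7027 genes in this range. Besides MMP1 and MMP10 these were ADAMTS10, an enzyme linked to fibrillin microfibrils (0.53 to 0.59 FPKM in shNC, 0.62 to 0.80 FPKM in shPQBP1), ADAMTS7, the partner of ADAMTS12 on cartilage oligomeric matrix protein (0.41 to 0.46 FPKM in shNC, 0.25 to 0.34 FPKM in shPQBP1), and the gelatinase MMP9, whose exons overlap those of SLC12A5-AS1. MMP9 was at 0.22, 0.25 and 0.21 FPKM in shNC and at 0.11, 0.20 and 0.11 FPKM in shPQBP1, and its neighbour in function MMP2 was at 0.40 to 0.49 and 0.49 to 0.59 FPKM, groups that met at 0.49 FPKM. Neither gelatinase was called. ADAM1A, a pseudogene in humans, was at 0.78 FPKM in shNC replicate 1 and at 0.06 to 0.21 FPKM in the other 5 samples. Of all 64 members in the fit without a limit on FPKM, 13 had an unadjusted p under 0.05, beside 13.5% of the genes in that fit, and 1, ADAMTS1, was called (limma adjusted p = 0.0443), beside 0.619%.

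**Figure D4:**
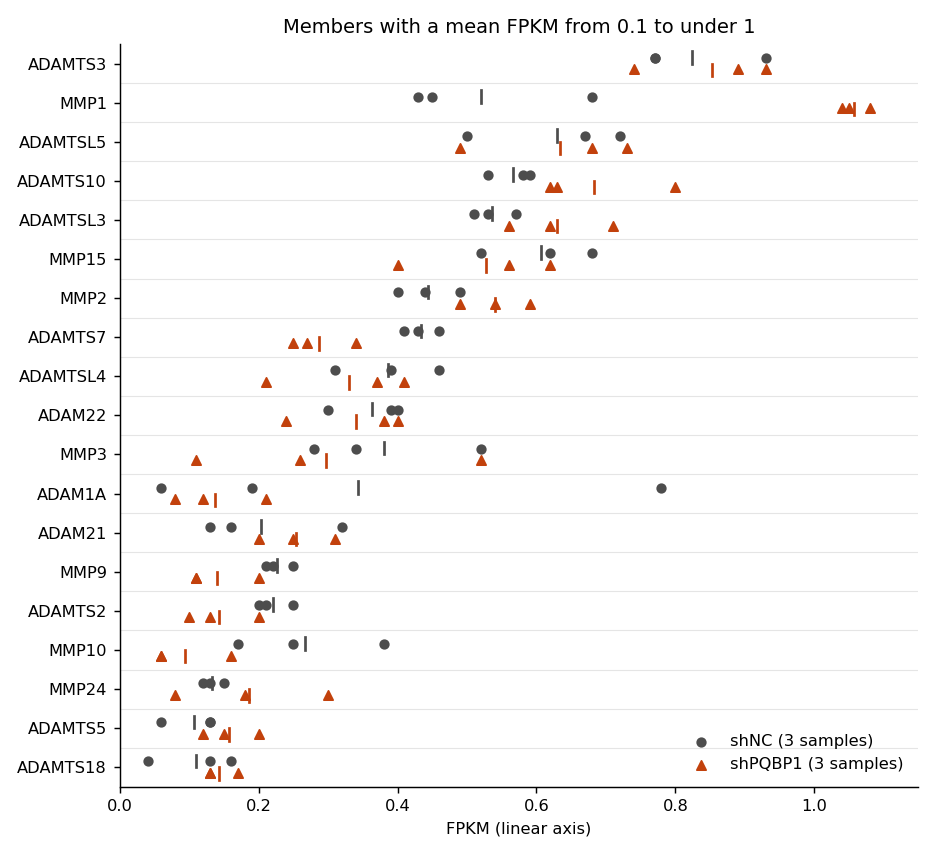
FPKM (linear axis from 0) of the 19 members with a mean from 0.1 to under 1 FPKM, with circles for the 3 shNC samples, triangles for the 3 shPQBP1 samples and lines at the group means. The groups lie apart in MMP1, ADAMTS10, ADAMTS7, MMP9 and MMP10, and a single shNC sample of ADAM1A stands at 0.78 FPKM.

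Promoters, taken from RefSeq (GRCh38.p14) as 300 bases around the gene start, 50 of them after it, were found for 42 of the 68 members, 14 of them tested. They were searched on both strands for the letters of 3 elements. The GC box GGGCGG was present in 69.0% of the members' promoters and in 45.0% of all 35116 promoters of the table. The letters TGANTCA were present in 7.14% of the members and 7.71% of all. They take in the AP-1 element known from promoters of MMP genes, but accept any middle base. The TATA box TATAAA was present in 16.7% of the members and 11.5% of all. A match to TGANTCA was found in MMP7, MMP10 and ADAMTS12, the last being the single tested member with it. The median GC content was 69.3% for the members and 58.7% for all promoters. Shown are 3 promoters on the minus strand: ADAM8 and ADAM12, whose groups lay apart in opposite directions, and ADAMTS12, with all matches in capitals (a GC box on the other strand reads CCGCCC, and no match shown overlaps another). They span chr10:133276819-133277118 for ADAM8, chr10:126388428-126388727 for ADAM12 and chr5:33891941-33892240 for ADAMTS12.
ADAM8: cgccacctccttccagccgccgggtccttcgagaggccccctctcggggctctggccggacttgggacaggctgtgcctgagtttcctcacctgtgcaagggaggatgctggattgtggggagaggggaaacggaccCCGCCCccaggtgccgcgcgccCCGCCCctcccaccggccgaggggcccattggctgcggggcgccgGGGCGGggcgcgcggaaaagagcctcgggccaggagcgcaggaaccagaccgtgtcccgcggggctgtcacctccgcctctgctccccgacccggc
ADAM12: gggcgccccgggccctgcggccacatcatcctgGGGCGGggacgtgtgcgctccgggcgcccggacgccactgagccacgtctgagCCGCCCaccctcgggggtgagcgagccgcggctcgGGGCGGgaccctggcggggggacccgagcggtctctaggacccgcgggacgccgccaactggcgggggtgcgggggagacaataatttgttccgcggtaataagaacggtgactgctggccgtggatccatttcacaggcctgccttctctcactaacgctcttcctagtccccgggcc
ADAMTS12: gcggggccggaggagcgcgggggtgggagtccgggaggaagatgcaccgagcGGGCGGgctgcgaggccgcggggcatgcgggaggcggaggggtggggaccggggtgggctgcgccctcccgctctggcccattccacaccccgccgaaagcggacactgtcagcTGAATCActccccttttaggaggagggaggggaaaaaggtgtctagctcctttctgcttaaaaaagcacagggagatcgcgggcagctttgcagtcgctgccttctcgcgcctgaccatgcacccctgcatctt

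ADAM8 and ADAM12 each held 3 GC boxes in this window, at a GC content of 74.0% and 71.0%. ADAMTS12 held 1 GC box and 1 match to TGANTCA, reading TGAATCA, at 67.0%. Neither ADAM8 nor ADAM12 was called from the deposited FPKM, and a part of these elements in any difference was not tested. A match of letters is a description of the sequence only.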

How the data were processed

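The short-read RNA-seq table of 6 HEY samples, 3 shNC and 3 shPQBP1, was used. The labels call the samples biological triplicates and name no culture of origin, so p-values measure the spread between these samples, which may be technical. Per the methods and the submitters' processing notes, poly(A) libraries were sequenced in pairs, mapped to hg38 with HISAT2 (version 2.2.0), sorted with SAMtools (version 1.9), assembled with StringTie (version 1.3.0) and compared with edgeR. The methods give 48 or 72 h of induction and the labels give day 3. For the exon events that the paper took from short-read RNA-seq, a supplementary legend gives 48 h of doxycycline, which differs from the label. The deposited FPKM values were computed by the authors per gene and sample and rounded, without pooling. The annotation release, the FPKM settings and the use of strand are not given in the sources used here. The table also holds columns of the authors' own comparison (fold change, log2 fold change, p-value, q-value and calls), which were not used. It holds no counts, so edgeR was not run, and the depth of the samples is unknown.

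The 11413 genes whose FPKM averaged 1 or more entered the test, on log2(FPKM + 0.1), with limma in R (versions 3.58.1 and 4.3.3): lmFit, then eBayes with its trend option. The test was two-sided, and Benjamini-Hochberg adjustment ran over all of them. The script was tested on simulated data. The members, gene lists and tests were chosen with earlier results of these data known. Named with values were PQBP1, members averaging 1 FPKM or more, members from 0.1 FPKM whose groups do not overlap, and certain genes of the lists. The latter had an adjusted p under 0.05 from the deposited FPKM or after the GC and length correction. MMP2, MMP3, MMP15, MMP24, ADAM1A, ADAMTS5, VCAN and the ADAMTSLs under the limit were named outside this rule, after their values were seen. Also named outside it were MMP7, MMP8, MMP12, MMP13, ACAN, the members listed at 0 and the markers of the cell line and of other cells. A gene of the list of matrix proteins is not reported here. Alternatives were median-of-ratios scaling, quantile normalization, no limit on FPKM, a limit of 10 FPKM, a pseudocount of 1 or 0.01, eBayes without the trend, a replicate block, leaving out every sample once, and removal from each sample of its trend on GC content and log length (natural splines, 5 degrees of freedom each, 11385 genes with a transcript in GENCODE release 44). Positions, exons and coding sequences were from GENCODE release 44 on hg38, where all 68 members were found. Python (version 3.11.15) was used for the other steps.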

Additional observations from a re-analysis of the deposited data

How the results depend on the processing

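Of the members, 1 was called by limma (ADAMTS1), also with both other scalings, both other limits on FPKM and both other pseudocounts. Without the mean-variance trend 3 were called, and with the correction for GC content and length 7. With each sample left out in turn, 0 or 1 were called (1 without shNC replicate 1), and 0 or 1 passed the 2-fold threshold of the study's methods (ADAM19, without shPQBP1 replicate 2 or 3). Over all genes 332 were called, and 382 without the trend, 190 with no limit on FPKM, 211 at a mean of at least 10 FPKM, 938 with the GC and length correction and 30 to 464 with a sample left out. The causes of these shifts were not tested.

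The deviations of same-numbered samples correlated at -0.186, -0.138 and -0.0114. No shNC sample correlated best with the shPQBP1 sample of its own number. Since the deviations also followed GC content, these values cannot decide whether the replicate numbers pair the samples. With the replicate block 0 genes and 0 members were called by limma, and the limma adjusted p was 0.195 for ADAMTS1 and 0.0686 for PQBP1. Their log2 fold changes were again 0.65 and -2.04, which was fixed in advance, since each block holds a sample of each group.

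The members closest to 0 changed sign: ADAM17 was -0.01 with quantile normalization and -0.09 with the GC and length correction, ADAM23 was -0.03 and -0.04 there and -0.01 without shNC replicate 2 or shPQBP1 replicate 3, and ADAMTS6, from -0.26 to 0.06 with a sample left out, was 0.05, 0.06 and 0.01 without shNC replicate 2, shNC replicate 3 and shPQBP1 replicate 2. Of the other values of single members, 316 kept their direction and, in tested members, their side of the threshold. Another 8 gained a call, 6 lost it, and 6 values of low members moved by more than the spread of the samples. In this comparison the values of low members were taken without an adjusted p, so no threshold was compared for them. Sizes moved further than calls: a pseudocount of 1 moved 10 of 26 values by over 1.5 times, among them ADAMTS9 to 0.36, ADAM8 to 0.42 and TIMP4 to -0.29, and the GC and length correction moved 10 of 21. The share of tested members with a positive log2 fold change was 13 to 16 of 21 over the alternatives with the same members. The depth is unknown, so the precision of members under 1 FPKM can be read only from the spread of 3 samples per group.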
